A study of Mus musculus with 15 samples.

Results

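The vitamin D system of the renal tubule was followed through 8 genes in mouse induced renal tubular epithelial cells (iRECs), fibroblasts that transcription factors had converted to a tubular fate. The 8 genes were taken by symbol from the 27179 genes of each of 4 deposited tables, and all 8 were found. They were selected on measured values, after the high fold change of Cyp24a1 in Matrigel had been seen, so every value of the Matrigel comparison is given here as a description, with no test. The cells of 1 line were grown for 7 days in Matrigel, a gel of basement membrane proteins, in fibrin gel, in collagen I gel, as drops that an inkjet bioprinter dispensed in fibrin and collagen I (printed), or on plastic plates (2D). Each condition had 3 libraries, from passages 35, 48 and 53, prepared from a common pool of cells in the same medium. The libraries are therefore cultures of 1 line and not separate animals, and p-values measure the spread between such cultures. The deposited tables hold 1 value per gene and comparison and no value per library, so the depth of the libraries is unknown and overlap between single libraries cannot be given. All 4 comparisons were made against the same 3 libraries of 2D cells. The choice of genes in Matrigel therefore also reaches the other 3 comparisons through 2D. The adjusted p-values of Cyp24a1 there do not allow for it. The name of the table for printed cultures mentions collagen and not fibrin, while the labels give both.

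Vitamin D reaches the proximal tubule as calcidiol, which is carried by the plasma protein GC and taken up by the receptors megalin and cubilin. CYP27B1 turns it into the hormone calcitriol, and CYP24A1 breaks both down. Calcitriol binds the vitamin D receptor VDR, which pairs with a retinoid X receptor (RXR) on DNA, and Cyp24a1 is a classic target of that pair, whereas Cyp27b1 is held down by the hormone. In the distal tubule the calcium channels, calbindins and pumps that carry calcium back to the blood are other known targets.

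In the GRCm38 build, Cyp24a1 spans chr2:170482957-170497145, Cyp27b1 chr10:127048246-127054884 and Vdr chr15:97854427-97908296. Rxra spans chr2:27676445-27763319 and Rxrb chr17:34031812-34038403. Trpv6 spans chr6:41620619-41636405, Calb1 chr4:15881264-15906709 and S100g chrX:162961992-162964599. VDR and RXR bind as a pair to direct repeats of a core word of 6 bases, so the 250 bases before each annotated start in RefSeq (GRCm38) were searched on both strands. The words searched were AGGTCA, then its variant AGTTCA, then the variant GGGTCA and also the variant GGTTCA. At least 1 of the 4 words stood in 38.6% of 32851 promoters, and 14.0% held AGGTCA itself. A direct repeat of these words spaced by 3 bases stood in 0.0396% of promoters and in none of the 8 windows searched for Cyp27b1, Vdr, Rxra, Rxrb, Trpv6 and S100g. Cyp24a1 and Calb1 were not among the genes searched. The windows of Cyp27b1 and Trpv6 are shown because these 2 genes had the lowest fold changes of the members in collagen I. Both are read 5′ to 3′ in the direction of the gene and end just before the start, and capitals mark a core word or its complement. The Cyp27b1 window (chr10:127047996-127048245, plus strand) held none of the words. The Trpv6 window (chr6:41636406-41636655, minus strand) held AGGTCA once on each strand, beginning 191 and 165 bases before the start. A match is a description of letters and says nothing of binding in these cells.
Cyp27b1: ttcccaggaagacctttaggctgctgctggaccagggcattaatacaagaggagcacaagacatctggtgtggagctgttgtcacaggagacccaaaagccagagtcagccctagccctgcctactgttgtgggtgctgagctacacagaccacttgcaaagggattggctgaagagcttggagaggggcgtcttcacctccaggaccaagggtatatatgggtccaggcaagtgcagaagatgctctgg
Trpv6: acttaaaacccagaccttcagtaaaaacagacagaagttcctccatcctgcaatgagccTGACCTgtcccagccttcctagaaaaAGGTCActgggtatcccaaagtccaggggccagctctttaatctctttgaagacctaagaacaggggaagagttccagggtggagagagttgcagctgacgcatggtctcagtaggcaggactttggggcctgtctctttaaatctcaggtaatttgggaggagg

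Levels and changes are given as the authors' tables hold them. The base mean is the mean over the 3 libraries of a microenvironment and the 3 of 2D of reads divided by size factors. The fold change compares a microenvironment with 2D on a log2 scale, is positive where the microenvironment is higher, was shrunken towards 0 in the authors' fit and has a standard error (SE). An adjusted p under 0.05 was taken as a call. From base mean and fold change the mean level in each condition was computed, called the implied level here. On a per-length scale (normalized reads per kb of exon, 2D cells, median of the 4 tables) the receptors led, with implied levels of 1157 for Rxrb, 767 for Vdr and 597 for Rxra. The same scale in 2D cells gave 22.7 for Cyp27b1, 11.1 for Cyp24a1, 3.34 for Trpv6, 1.71 for S100g and 0 for Calb1. The cells thus held far more receptor mRNA per length than mRNA of either enzyme. Adjusted p-values were given for 6 of the 8 members in every table, and not for Calb1 and S100g.

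Cyp24a1, the enzyme that breaks calcitriol down, was higher in every microenvironment than in 2D. The authors' deposited tables put its fold change at 2.84 ± 0.28 in Matrigel (log2 ± SE, 7.15-fold). It rose by 1.41 ± 0.37 in fibrin (2.66-fold, adjusted p = 0.00384), 1.97 ± 0.37 in collagen I (3.92-fold, adjusted p = 1.1e-05) and 1.78 ± 0.32 in printed cultures (3.45-fold, adjusted p = 5.54e-06), in the authors' deposited tables. In bulk RNA, more cells with the transcript and more transcript per cell cannot be told apart. Against an empirical null, whose spread comes from the middle part of all Wald values in a table, its adjusted p was 0.132 in fibrin and 0.0649 in collagen I, so that only the call in printed cultures held. Among genes with an adjusted p, its fold change counted from the highest ranked 3 of 14602 in Matrigel, 12 of 15116 in printed cultures, 23 of 14064 in collagen I and 154 of 14636 in fibrin. Its SE lay close to the median SE of genes within 2-fold of its base mean, for example 0.32 against 0.31 in printed cultures.

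The implied level of Cyp24a1 was 337 normalized reads per library in Matrigel, 78.8 in fibrin, 125 in collagen I and 181 in printed cultures, against 29.6 to 52.4 in 2D, depending on the table. All 4 implied levels lay above the 4 estimates for 2D. The order of collagen I and printed cultures differs between the levels and the fold changes. Base means of 191.9 in Matrigel, 116.5 in printed cultures, 78.6 in collagen I and 54.2 in fibrin, from the authors' deposited tables, place printed above collagen I. As the 2D libraries are shared, these base means give a level gap of -75.7 normalized reads for collagen I minus printed. The fold changes place collagen I above printed, but they were shrunken towards 0 by amounts that can differ between comparisons. With the lowest of the 4 estimates for 2D as a common base, a choice made after seeing the data, the ratios were 12.0-fold in Matrigel, 6.87-fold in printed cultures, 4.31-fold in collagen I and 2.66-fold in fibrin. Another base was the median 2D level of the other 3 tables. The log2 ratio was then 3.46 in Matrigel, 2.65 in printed cultures, 1.23 in collagen I and 0.38 in fibrin. The fibrin ratio thus depends on the 2D level used, 47.1 here against 29.6 from its own table. Shrinkage of a positive fold change raises the implied 2D level. A base from another table can thus be too high and its ratio too low. Cyp24a1 shares 83 exon bases with Pfdn4, a chaperone gene on the opposite strand, and without a stated strand setting reads of that stretch cannot be told apart. Pfdn4 had fold changes of 0.05 ± 0.20 in Matrigel, 0.48 ± 0.22 in fibrin, 0.75 ± 0.24 in collagen I and 0.28 ± 0.20 in printed cultures in the authors' deposited tables (log2 ± SE). Of the 4 cultures, Pfdn4 was lowest in Matrigel, where Cyp24a1 was highest, and among the other 3 both genes had their highest fold change in collagen I. The base mean of Pfdn4 was 1714 in collagen I and 1461 in printed cultures. That of Cyp24a1 went the other way, 78.6 in collagen I and 116.5 in printed cultures. The part of Pfdn4 reads in the values of Cyp24a1 was not tested.

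**Figure D1:**
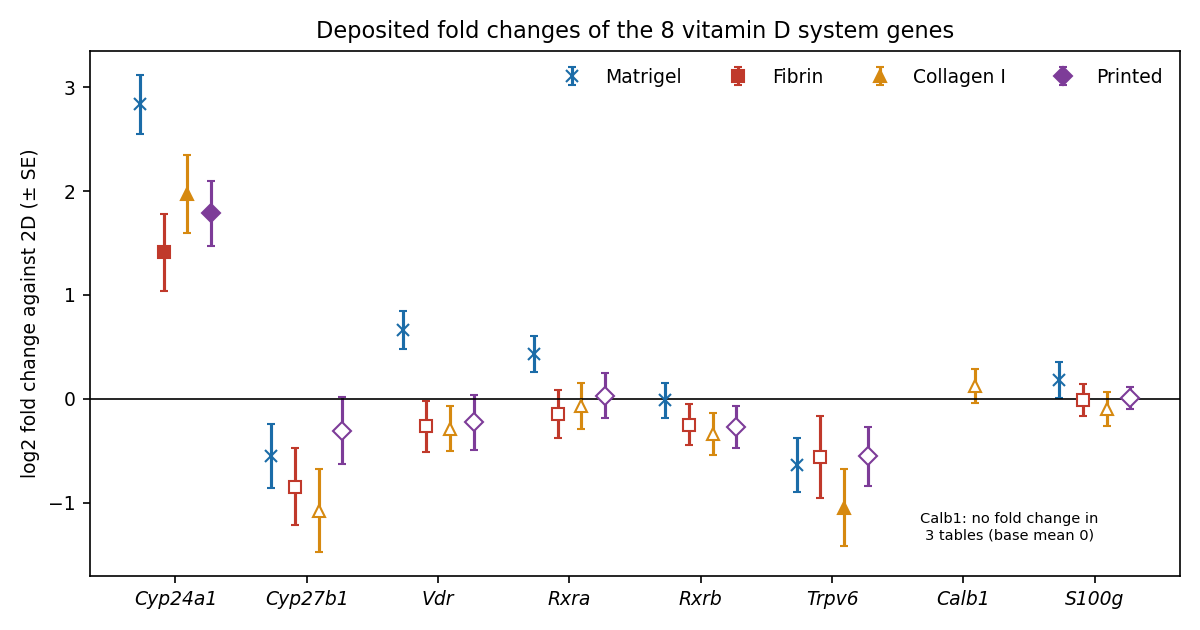
Log2 fold change of the 8 genes in each microenvironment against 2D (y axis, ± SE) from the authors' deposited tables. Filled symbols have an adjusted p under 0.05, open ones do not, and crosses for Matrigel carry no call. Cyp24a1 stands above 1 in all 4, while Cyp27b1, Rxrb and Trpv6 lie below 0 in all 4.

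Cyp27b1, which makes calcitriol, had negative fold changes in all 4 comparisons, and none passed in the 3 that were tested. The authors' deposited tables gave -0.55 ± 0.31 in Matrigel (log2 ± SE). In the other tables deposited by the authors it was -0.84 ± 0.37 in fibrin (adjusted p = 0.151), -1.08 ± 0.40 in collagen I (adjusted p = 0.0570) and -0.31 ± 0.32 in printed cultures (adjusted p = 0.862). The implied level was 40.1 in Matrigel, 32.3 in fibrin, 26.1 in collagen I and 50.0 in printed cultures, against 55.1 to 61.9 normalized reads in 2D. Every implied level in a microenvironment was below every estimate for 2D, but the SE is large at base means of 40.6 to 55.9.

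Vdr, the receptor itself, stood apart in Matrigel. The authors' deposited table for Matrigel gave 0.66 ± 0.18 (log2 ± SE, base mean 5750). The tables deposited by the authors gave -0.27 ± 0.24 in fibrin (adjusted p = 0.650), -0.29 ± 0.22 in collagen I (adjusted p = 0.470) and -0.23 ± 0.27 in printed cultures (adjusted p = 0.889). The implied level of Vdr was 7050 normalized reads in Matrigel, 3513 in fibrin, 3380 in collagen I and 3795 in printed cultures, against 4120 to 4450 in 2D. Only the Matrigel level lay above the estimates for 2D. The Vdr SE in printed cultures, 0.27, was wider than the 0.21 that was the median of genes of like base mean.

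The retinoid X receptors, the partners of VDR, showed smaller values. Rxra had 0.43 ± 0.17 in Matrigel, -0.14 ± 0.23 in fibrin (adjusted p = 0.832), -0.07 ± 0.22 in collagen I (adjusted p = 0.896) and 0.03 ± 0.22 in printed cultures (adjusted p = 0.992), in the authors' deposited tables. Rxrb had -0.02 ± 0.17 in Matrigel, -0.25 ± 0.20 in fibrin (adjusted p = 0.575), -0.34 ± 0.20 in collagen I (adjusted p = 0.329) and -0.27 ± 0.20 in printed cultures (adjusted p = 0.718), in the authors' deposited tables. No call was made for either receptor in the 3 tested comparisons. Implied levels of Rxra were 4488, 2891, 2984 and 3402 normalized reads in Matrigel, fibrin, collagen I and printed cultures, against 3135 to 3330 in 2D.

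**Figure D2:**
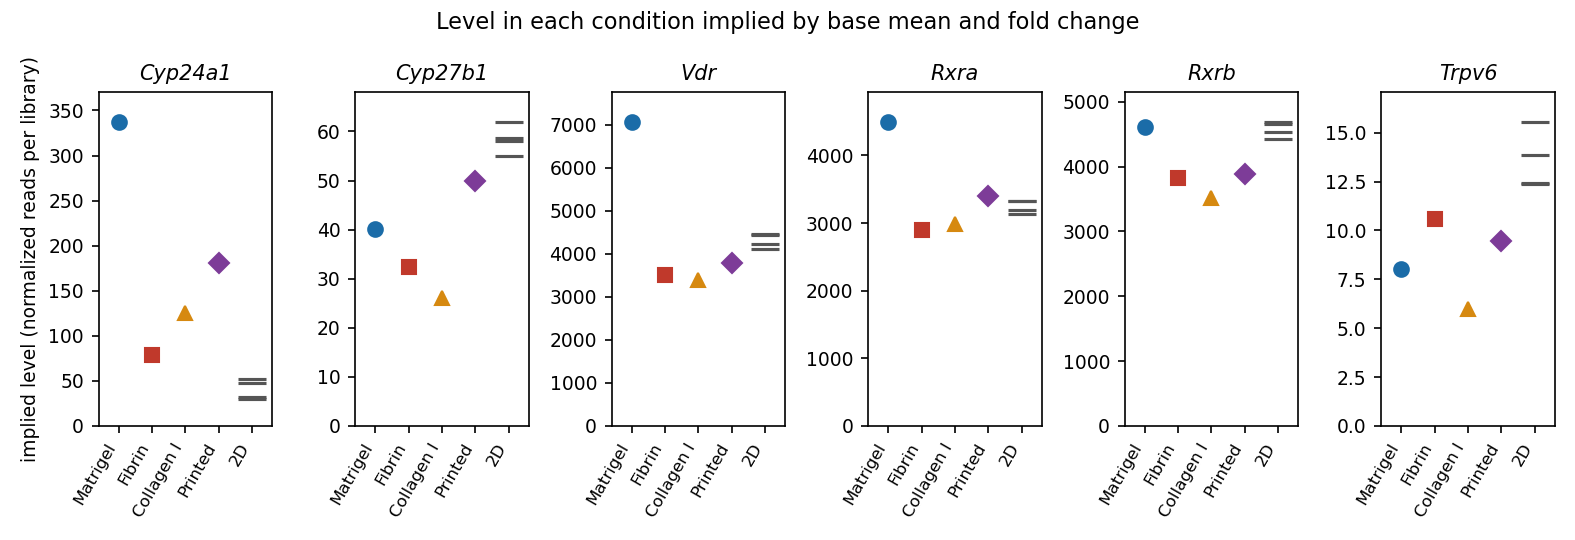
Implied level (y axis, normalized reads per library, linear from 0) of the 6 genes with an adjusted p in Matrigel, fibrin, collagen I, printed and 2D cultures. Each point is 1 table's value and the 4 dashes are the levels in 2D that the 4 tables imply, so their spread is no replicate error. Cyp24a1 lies above the dashes in all 4 microenvironments, and Vdr only in Matrigel.

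The genes of calcium handling were low. Trpv6, the apical channel of calcium entry, had a negative fold change in all 4 comparisons. It fell in collagen I, with -1.05 ± 0.37 (log2 ± SE, adjusted p = 0.0456) in the authors' deposited table, and was 2.07-fold lower. The call is close to the threshold and rests on a base mean of 9.18 normalized reads. In the other authors' deposited tables Trpv6 had -0.63 ± 0.26 in Matrigel, -0.56 ± 0.39 in fibrin (adjusted p = 0.496) and -0.55 ± 0.28 in printed cultures (adjusted p = 0.442). S100g encodes the small calbindin of the distal tubule, and its base mean was 3.33 in Matrigel, 0.737 in fibrin, 0.383 in collagen I and 0.907 in printed cultures in the authors' deposited tables. Its fold changes there ran from -0.10 to 0.18. Calb1, the large calbindin, was listed at a base mean of 0 in the tables for Matrigel, fibrin and printed cultures and at 0.648 for collagen I in the authors' deposited tables. Its reads were therefore all in collagen I libraries, 3.89 normalized reads in sum. These 2 genes are near or at 0, and their fold changes were shrunken close to 0. As the 2D libraries are shared, the base means put S100g in Matrigel 4.85 to 5.90 normalized reads above the other cultures. That gap is of few reads, was not tested, and without values per library could come from a single culture. No direction is read for Calb1.

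Calls among the 6 members with an adjusted p can be set beside those among all genes. In fibrin 1 member was higher and 0 lower, where 8.3% of 14636 genes were called in either direction, 5.19% as higher and 3.11% as lower. In collagen I 1 member was higher and 1 lower, where 11.2% of 14064 genes were called, 6.51% as higher and 4.65% as lower. In printed cultures 1 member was higher and 0 lower, where 3.18% of 15116 genes were called 2.51% as higher and 0.675% as lower. The single higher gene was Cyp24a1 each time, the gene behind the choice, and the shared 2D libraries carry that choice into these counts. At an unadjusted p under 0.05, the authors' DESeq2 tables gave 1 member lower in fibrin (Cyp27b1), 2 lower in collagen I (Cyp27b1 and Trpv6) and 0 lower in printed cultures. Against the empirical null, 0 members were lower at that unadjusted threshold in fibrin and 0 in collagen I. The share of all genes at an unadjusted p under 0.05 is not given here, so nothing is read from these counts. In Matrigel, 2 members passed as higher, beside 6.36% of 14602 genes called in either direction, 4.03% as higher and 2.32% as lower, and nothing is read from this count because that comparison chose the genes. Against the empirical null, the Cyp24a1 call held in printed cultures, beside 1.79% of genes in either direction (1.46% higher, 0.331% lower). It was lost in fibrin, beside 2.3% of genes (1.56% higher, 0.731% lower), and in collagen I, beside 1.04% of genes (0.455% higher, 0.583% lower). Trpv6 in collagen I was lost as well (adjusted p = 0.657). The same null called 2.55% of genes in Matrigel (1.64% higher, 0.918% lower).

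**Figure D3:**
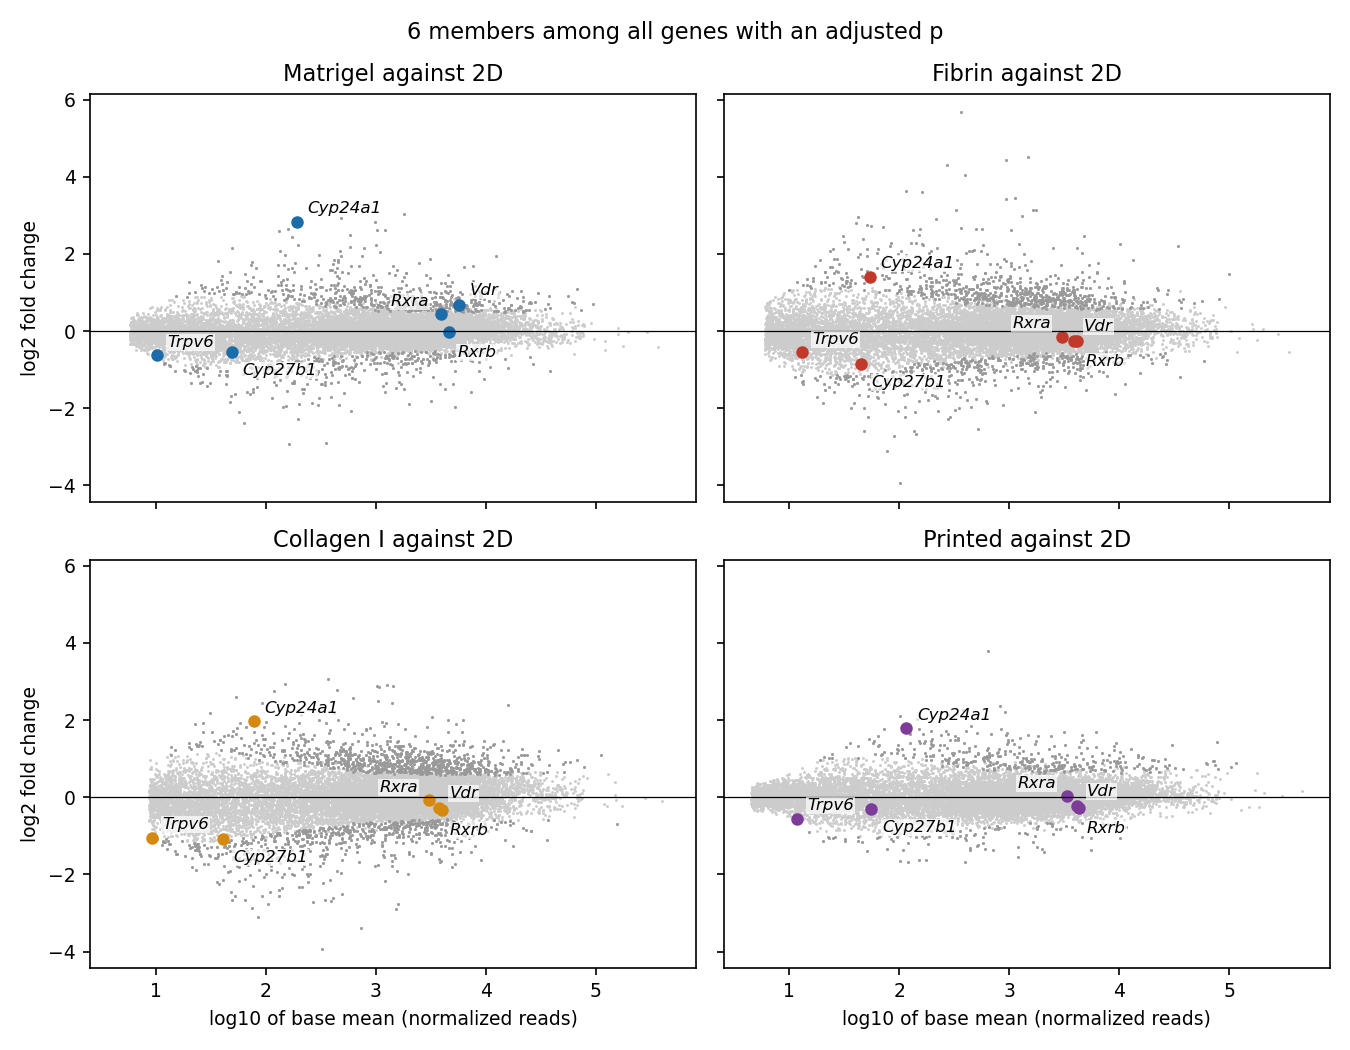
Log2 fold change (y axis) against log10 base mean (x axis, normalized reads) of genes with an adjusted p, 1 panel per microenvironment against 2D. Dark grey marks genes with an adjusted p under 0.05 and coloured points are the 6 members. Cyp24a1 stands out on the upper side of all 4 panels, and the receptors sit among the abundant genes near 0 except Vdr in Matrigel.

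Whether the 3 microenvironments other than Matrigel differed from each other was tested on the difference of their fold changes over all genes. None of the 7 members with a value passed in any of the 3 pairs, and 0 had an unadjusted p under 0.05 in any pair. Across all genes, 0.477% passed for collagen I minus fibrin, 1.05% for printed minus fibrin and 0.662% for printed minus collagen I. For Cyp24a1 the difference was 0.56 ± 0.53 for collagen I minus fibrin (95% interval -0.48 to 1.59), 0.37 ± 0.49 for printed minus fibrin (-0.58 to 1.33) and -0.19 ± 0.49 for printed minus collagen I (-1.14 to 0.77). These intervals are wide and do not show that the 3 cultures act alike. The fold changes were shrunken towards 0 before they were subtracted. For Cyp24a1 the base means place printed above collagen I, opposite to the sign of that difference. Cyp27b1 had the largest gap, 0.77 ± 0.51 for printed minus collagen I (-0.24 to 1.77). Matrigel differences are given as a description. Cyp24a1 in Matrigel was above fibrin by 1.43 ± 0.47, above collagen I by 0.87 ± 0.47 and above printed by 1.05 ± 0.42. Vdr in Matrigel was above fibrin by 0.93 ± 0.30, above collagen I by 0.95 ± 0.28 and above printed by 0.89 ± 0.32. Rxra in Matrigel was above fibrin by 0.58 ± 0.29, above collagen I by 0.50 ± 0.28 and above printed by 0.40 ± 0.28.

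A further 74 genes of vitamin D uptake, VDR coregulation, RXR partners, hormone receptors, calcium and phosphate transport and VDR targets were examined on 8 lists. Among those with an adjusted p, 2 were higher and 4 lower of 54 in fibrin, 5 higher and 4 lower of 54 in collagen I, and 2 higher and 1 lower of 56 in printed cultures. Over all genes, 8.3% were called in either direction in fibrin, 11.2% in collagen I and 3.18% in printed cultures. The listed genes had median fold changes of -0.19, -0.14 and 0.08 in those 3, beside medians of all genes between 0.0037 and 0.0103. In Matrigel 5 were higher and 2 lower of 54, with a median of 0.06, and nothing is read from that count. Against the empirical null, an alternative added after seeing the data, Slc20a1 and Spp1 in fibrin, Gc in collagen I and Gc, Thbd and Abcb1a in printed cultures were still called, and the other calls in these 3 cultures were lost. Of the 14 other RXR partners, 11 in fibrin and collagen I and 12 in printed cultures had an adjusted p, and none of these was called, nor was any of 3 genes of the electron supply of mitochondrial P450 enzymes.

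Upstream of the enzymes, Gc, the gene of the vitamin D carrier made mainly by the liver, fell in collagen I and in printed cultures. The authors' deposited tables gave -1.81 ± 0.22 in collagen I (log2 ± SE, adjusted p = 3.24e-13) and -1.36 ± 0.21 in printed cultures (adjusted p = 2.63e-08), against -0.41 ± 0.26 in fibrin (adjusted p = 0.418). In Matrigel it was -0.47 ± 0.17 in the authors' deposited table. Cyp27a1, a mitochondrial hydroxylase that can make calcidiol, fell by 1.05 ± 0.25 in fibrin (adjusted p = 0.00117) in the authors' deposited table. Cyp2r1, the main calcidiol-making enzyme of the liver, was listed at a base mean of 0 in all 4 of the authors' deposited tables. Megalin (Lrp2) had 0.56 ± 0.16 and cubilin (Cubn) 0.73 ± 0.19 in Matrigel, in the authors' deposited table, and neither was called in the other 3.

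The hormone receptor list covers receptors of FGF23 and parathyroid hormone, which regulate the renal vitamin D enzymes. Fgfr3 fell by 0.99 ± 0.24 in fibrin (adjusted p = 0.00173) and by 0.80 ± 0.25 in collagen I (adjusted p = 0.0204), in the authors' deposited tables. Fgfr4 rose by 0.81 ± 0.22 in collagen I (adjusted p = 0.00417) and Fgfr2 by 0.66 ± 0.23 there (adjusted p = 0.0466), in the authors' deposited table. In Matrigel, Fgfr4 had 1.02 ± 0.19 and Fgfr2 had 0.76 ± 0.19 in the authors' deposited table. Kl, the coreceptor of FGF23, had a base mean of at most 1.68 in any of the authors' deposited tables. Of the VDR coregulators, 1 of 11 was called, the coactivator Ncoa1, with -0.66 ± 0.23 in fibrin (adjusted p = 0.0487) and -0.82 ± 0.23 in collagen I (adjusted p = 0.0065) in the authors' deposited tables. The share of all genes called in either direction was 8.3% in fibrin and 11.2% in collagen I.

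Of the phosphate transporters, Slc20a1, a sodium-phosphate carrier, fell by 1.09 ± 0.23 in fibrin (adjusted p = 0.000173) and by 1.11 ± 0.25 in collagen I (adjusted p = 0.000322), in the authors' deposited tables. Slc20a1 had -0.96 ± 0.22 in Matrigel and -0.26 ± 0.21 in printed cultures (adjusted p = 0.758), in the authors' deposited tables. Atp2b4, a calcium pump of the plasma membrane, had -0.99 ± 0.28 in Matrigel and -1.02 ± 0.40 in collagen I (adjusted p = 0.0801), in the authors' deposited tables. Its values were positive in fibrin, 0.33 ± 0.30 (adjusted p = 0.656), and in printed cultures, 0.26 ± 0.28 (adjusted p = 0.874), in the authors' deposited tables. Calmodulin genes of the calcium list rose in part, with Calm2 at 0.60 in fibrin (adjusted p = 0.0249) and 0.68 in collagen I (adjusted p = 0.0158) in the authors' deposited tables. Of 11 other VDR targets, 5 had an adjusted p in each comparison. Of these 5, 1 was called in fibrin, 1 in collagen I and 2 in printed cultures, all as higher. Among all genes, 5.19%, 6.51% and 2.51% were called higher there. In Matrigel 0 of the 5 were called. Fold changes were positive for 3 of the 5 in Matrigel, 3 in fibrin, 4 in collagen I and 5 in printed cultures. The matrix protein gene Spp1 rose by 1.47 ± 0.29 in fibrin (adjusted p = 1.94e-05), in the authors' deposited table. Thbd, thrombomodulin, rose by 1.14 ± 0.28 in printed cultures (adjusted p = 0.00423), and the drug pump gene Abcb1a by 1.25 ± 0.32 there (adjusted p = 0.00542), in the authors' deposited table. Abcb1a also rose 2.18-fold in collagen I (adjusted p = 0.0279) in the authors' deposited table.

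**Figure D4:**
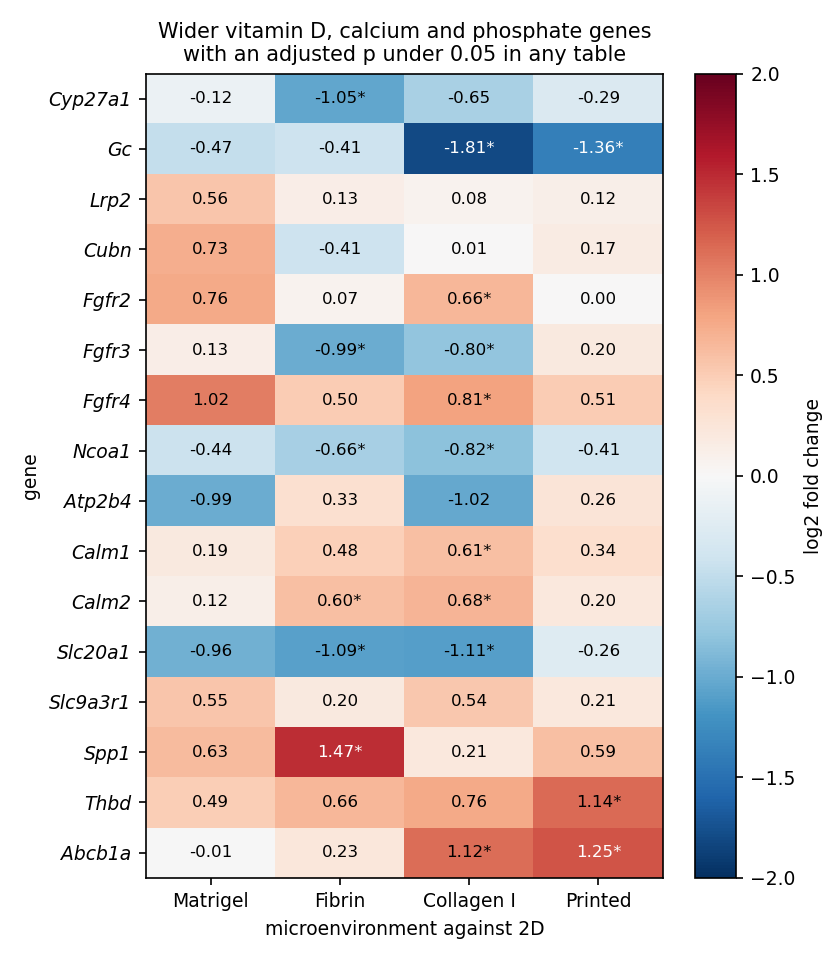
Log2 fold change against 2D of the 16 further genes with an adjusted p under 0.05 in any of the 4 tables (rows) in Matrigel, fibrin, collagen I and printed cultures (columns), from the authors' deposited tables. A star marks an adjusted p under 0.05 and is not drawn for Matrigel, the comparison that chose the members. The deepest blue is Gc in collagen I at -1.81 and the deepest red is Spp1 in fibrin at 1.47.

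Likeness was measured over the 4 fold changes as a Euclidean distance among 11175 genes with a base mean of at least 100. Nearest to Cyp24a1 were Nefh at a distance of 0.77, Krt5 at 0.99, Gsta4 at 1.06, Nqo1 at 1.10 and Gjb1 at 1.17. Cyp24a1 itself lies under that base mean in fibrin (54.2) and collagen I (78.6), so genes of its own level were left out. With a base mean of at least 10, the nearest were Gsdma at 0.562, Crybb1 at 0.765, Nefh at 0.768, Papss2 at 0.837 and Krt5 at 0.994. Nearest to Vdr were Atf5 at 0.27, Dmtn at 0.28, Fkbp5 at 0.28, Tmem8 at 0.29 and Nup210 at 0.30. The 4 fold changes share the libraries of 2D, and the distances are a description.

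The labelled cell type was checked against marker genes. All 10 tubular epithelial markers were detected in every table, with a summed base mean of 137884 to 172356, against 209 to 317 for 8 fibroblast markers and 13.8 to 26.6 for 5 endothelial markers, in the authors' deposited tables. Of the fibroblast markers, Col1a1, a collagen I chain, fell by 2.35 ± 0.33 in collagen I (adjusted p = 1.59e-10) and by 1.49 ± 0.33 in fibrin (adjusted p = 0.000353), in the authors' deposited tables. Pdgfra, a growth factor receptor, fell by 1.19 ± 0.39 in fibrin (adjusted p = 0.0337) in the authors' deposited table. No other fibroblast or endothelial marker was called in fibrin, collagen I or printed cultures. In Matrigel the fibroblast markers Col1a2 and Col3a1 had base means of 24.9 and 16.0, against at most 0.324 and 1.79 in the other 3. Their fold changes in Matrigel were 0.08 ± 0.10 and 0.08 ± 0.10. Without values per library, these reads could come from a single culture. The tubular list includes Lrp2 and Cubn, and its genes were higher for 4 of 10 in Matrigel and lower for 1 of 10 in fibrin and 2 of 10 in collagen I. Among all genes, 4.03% were called higher in Matrigel, 3.11% lower in fibrin and 4.65% lower in collagen I. Nothing is read from the Matrigel count. The 6 leukocyte markers summed to 955 in printed cultures and 341 to 484 in the other 3, almost all of it Cd68, which rose 3.03-fold in printed cultures (adjusted p = 2.13e-09) in the authors' deposited table. Itgam, an integrin of myeloid cells, rose 2.36-fold in fibrin (adjusted p = 0.0279) at a base mean of 24.9, in the authors' deposited table. Ptprc was at most 3.02 and Cd3e was at 0 in all 4 of the authors' deposited tables. The part of these markers in the values of the vitamin D genes was not tested. The 7 distal tubule markers summed to 46.0 to 75.6, nearly all Slc12a3, a distal sodium-chloride carrier that fell by 1.47 ± 0.41 in collagen I (adjusted p = 0.00697) beside Trpv6, in the authors' deposited table.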

How the data were processed

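RNA of 15 libraries, 3 per condition, was sequenced. The submitters' processing notes name DESeq2 1.22.1, featureCounts 1.6.3, STAR 2.6.0b-1, Trim Galore 0.4.3, FastQC 0.72 and the build mm10. Strand setting, annotation and any term for passage were not found in the labels or headers. The deposited base mean is a signal (size-factor-normalized reads). The deposited fold change is on a log2 scale, with the SE on that log2 scale, and the Wald value is a score deposited by the authors. Each deposited p-value is the authors', missing after adjustment for genes of low base mean.

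Computed here with Python 3.11.15, NumPy 2.4.6, pandas 2.3.3 and SciPy 1.17.1 were implied levels, differences of fold changes (normal test, errors taken as independent, Benjamini-Hochberg over all genes) and distances. The members and lists were chosen with earlier results of these data known. Further genes were named where they were called in any table, with Lrp2 and Cubn in any case. The 5 genes nearest to Cyp24a1 and to Vdr were also named, for Cyp24a1 at both limits of base mean. Kl, Cyp2r1, Pfdn4 and the cell markers named were picked after their values were seen. Depth is unknown. Signs were checked through the 2D levels implied by the tables (median SD 0.0383, against 0.0987 or more with a sign turned). The test of differences was checked on simulated data, with independent, unshrunken fold changes of genes with a base mean of at least 100. That check does not cover the shared 2D libraries, the shrinkage or members of lower base mean. Of the gene IDs, 93.0% matched RefSeq.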

Additional observations from a re-analysis of the deposited data

Results flagged for a closer look

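Gc, the gene of the vitamin D carrier, differed between collagen I and fibrin by -1.40 ± 0.34 on the log2 scale (adjusted p of the difference 0.0106, normal test over all genes). Its fold changes against 2D were -1.81 ± 0.22 in collagen I and -0.41 ± 0.26 in fibrin in the authors' deposited tables. None of the members differed this way in any of the 3 pairs tested.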

How the results depend on the processing

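No called result changed direction. The Cyp24a1 call in printed cultures held under every alternative, but none of these allows for the choice of genes through the shared 2D libraries. Under an empirical null, which widens the reference spread of the Wald values to 1.35 in fibrin and 1.57 in collagen I, the counts of members called as higher became 0 in fibrin (adjusted p of Cyp24a1 0.132) and 0 in collagen I (0.0649), with 1 member each at an unadjusted p under 0.05, and the count of members lower in collagen I became 0 (0 at an unadjusted p under 0.05). Over genes with a base mean of at least 100, members higher became 0 in fibrin and collagen I and members lower became 0 in collagen I, because Cyp24a1 and Trpv6 lie under that base mean there. The lower call of Trpv6 in collagen I was also lost over every gene with a p-value (0 called, adjusted p = 0.0637) and at an adjusted p under 0.01 (0 called). For the wider lists, an empirical null added after seeing the data gave 1 higher and 1 lower in Matrigel, 1 and 1 in fibrin, 0 and 1 in collagen I (2 higher at an unadjusted p under 0.05), and 2 and 1 in printed cultures. Counts at an unadjusted p under 0.05 have no share of all genes beside them, and nothing is read from them. Implied levels against 2D from the other tables gave Cyp24a1 log2 ratios of 3.46 in Matrigel, 0.38 in fibrin, 1.23 in collagen I and 2.65 in printed cultures. Trpv6 in fibrin had 0.14 on that scale. Shrinkage towards 0 can place the implied 2D level too high for a raised gene and too low for a lowered one. These ratios carry that error. A correlation of 0.5 between fold changes altered no call of a difference. Of the 5 genes nearest to Cyp24a1, 2 were shared with a base mean of at least 10 and 2 with Wald values, and of the 5 nearest to Vdr, 5 and 2. No paired analysis was possible because the tables hold no value per library, and leaving out each replicate was not run for the same reason. Depth cannot be given, and genes with a base mean of about 10 or less, such as Trpv6, S100g and Calb1, rest on few reads.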
